A study of Mus musculus with 9 samples.

Results

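Primary mouse cortical neurons held for 7 hours in 0.2% oxygen were compared with the same kind of culture in normal oxygen, across all genes other than the well-known targets of the hypoxia-inducible factors, the glycolysis enzymes and the immediate early genes. The comparison uses 6 of the 9 libraries of the study: 3 of normoxia, labelled Control and numbered 1 to 3, and 3 of hypoxia without hormone, numbered 7 to 9 in the column headers. All were wild-type (genotype Wt) cells of strain C57BL/6, grown on poly-D-lysine in Neurobasal medium with B27 for 6 days before use, with no transgene or added agent in either group; the age of the animals is not given in the sources used here. The 3 remaining libraries, hypoxia with 10 nM of the thyroid hormone T3, entered the estimate of the spread and no comparison. Of 12923 genes above 1 CPM in at least 3 libraries, 119 belonged to the 3 lists set aside, and the 12804 others are described here. Levels are TMM-normalized CPM (read counts relative to library size), and a log2 change is the difference, hypoxia minus normoxia, of the group means of log2(CPM + 1), which understates the change of low genes.

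Neurons depend on oxygen for most of their ATP and hold little glycogen. When oxygen falls, several sensing systems act at once: prolyl hydroxylases stop marking HIF for destruction, the kinases of the integrated stress response slow translation and raise ATF4, and energy-demanding steps such as transcription, ion pumping and synaptic release are throttled. Cortical neurons also express an unusual number of very long genes, many of which encode adhesion molecules, ion channels and synaptic proteins, and one passage of RNA polymerase II through such a gene takes hours.

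The recovered depth of the 6 libraries ranged from 17182338 reads (hypoxia 7) to 33937842 reads (normoxia 2), and 1 read was worth 0.0302 to 0.0565 CPM. As a check of the labels, Pdk1, Bnip3, Slc2a1 and Ankrd37, textbook HIF targets, had log2 changes of 1.66 to 2.40 with no overlap between the groups. Nothing in the labels ties the libraries of a group to separate cultures or litters; p-values therefore measure only how these libraries vary, and that variation may be technical. Neuron markers were abundant in every library (14 of 14 tested; summed level 6643 to 8909 CPM). Of the markers of microglia 12 of 13, and of endothelium and pericytes 12 of 14, were under 1 CPM in all 6 libraries. Markers of the oligodendrocyte lineage summed to 50.5, 92.4 and 155 CPM in normoxia and 89.3, 219 and 234 CPM in hypoxia, those of progenitors and cycling cells to 79.9, 153 and 301 CPM and 151, 340 and 444 CPM, and those of astrocytes to 617, 579 and 699 CPM and 691, 813 and 1024 CPM. Normoxia 1 and hypoxia 7 were thus the libraries lowest in oligodendrocyte and progenitor markers within their groups, and hypoxia 9 the highest in all 3 lists.

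Outside the 3 lists, 1758 genes (13.7%) were higher and 2490 (19.4%) lower in hypoxia (limma, Benjamini-Hochberg adjusted p under 0.05), against 14.3% higher and 19.3% lower among all tested genes. Of these, 60 (0.469%) were higher and 113 (0.883%) lower by at least 2-fold (100 and 47 with equal column sums, a rescaling described next). In 47.4% of genes outside the lists the 3 hypoxia and 3 normoxia values did not overlap. Without hypoxia 9 the count of higher genes fell to 1092. The columns of the deposited table do not sum to the same total: they come to 1025181 to 1091200 in normoxia and 945822 to 971035 in hypoxia. Rescaled to equal sums, the median over all tested genes moved from 0.00 to 0.13 on the log2 scale, and the counts became 3879 (30.3%) higher and 1226 (9.58%) lower. Over all tested genes, the 1232 lower under equal sums were all lower as deposited too, the 1846 higher as deposited all stayed higher, and 0 genes changed from called lower to called higher. The 10 tested ribosomal RNA and RNA quality rows summed to 51540, 37841 and 47202 CPM in normoxia and to 16271, 10949 and 12736 CPM in hypoxia, without overlap. Of them 4 were lower and 3 higher (3 and 4 with equal column sums). Without 1 row that holds a value other than a whole number of reads, 3 were lower and 3 higher. That row is part of the sums above. The part of these rows in the other changes was not tested. Counts of list members with equal column sums are given beside those as deposited. In bulk RNA, fewer cells of a type and less RNA per cell cannot be told apart.

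The increases were led by short genes of growth control, metal binding and stress. Eif3j2, a translation initiation factor gene, went from 0.0416, 0.0302 and 0.858 CPM in normoxia to 74.1, 46.2 and 71.4 CPM in hypoxia, while its near-identical copy Eif3j1 went from 59.6, 56.7 and 61.4 CPM to 0, 20.2 and 0 CPM. Reads of the pair can be divided between the copies by the counting, so neither value is certain. Hypoxia 8, the lowest of the hypoxia libraries in Eif3j2 (46.2 CPM), was the only one of them with a level of Eif3j1 (20.2 CPM). A rise of the pair as a whole can therefore not be read from Eif3j2 alone, and the summed level was not tested. The decrease of Eif3j1 lost its call without any 1 of the 6 libraries except hypoxia 8. Sertad1, a cofactor of E2F-driven transcription, stood at 1.08, 0.936 and 1.43 CPM in normoxia and at 7.74, 6.41 and 7.55 CPM in hypoxia. All 3 hypoxia values lay far above the 3 normoxia values, a log2 change of 1.94 (SE 0.16, adjusted p = 2.1e-05 by limma). Smtnl2, a smoothelin-like gene, stood at 16.6, 15.3 and 16 CPM and at 46.6, 63.5 and 54.3 CPM, without overlap (log2 change 1.71, SE 0.10, adjusted p = 1.6e-06 by limma). Narf, which encodes a protein that binds prelamin A, stood at 92.7, 89.2 and 89.3 CPM and at 236, 224 and 217 CPM. The groups were widely separated for their spread (log2 change 1.31, SE 0.05, adjusted p = 9.5e-08 by limma). The others among the 12 largest increases were Mt1 and Mt2 (below), the clock gene Ciart, the stress genes Trib3 and Sesn2, the dehydrogenase-like gene Aspdh (1.32), the DNA helicase gene Recql4 (1.29) and the Rab GTPase-activating gene Tbc1d8b (1.29). Each of these 12 was also called with equal column sums and when any 1 library was left out. For Eif3j2 this does not settle how reads were divided between the copies.

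**Figure D1:**
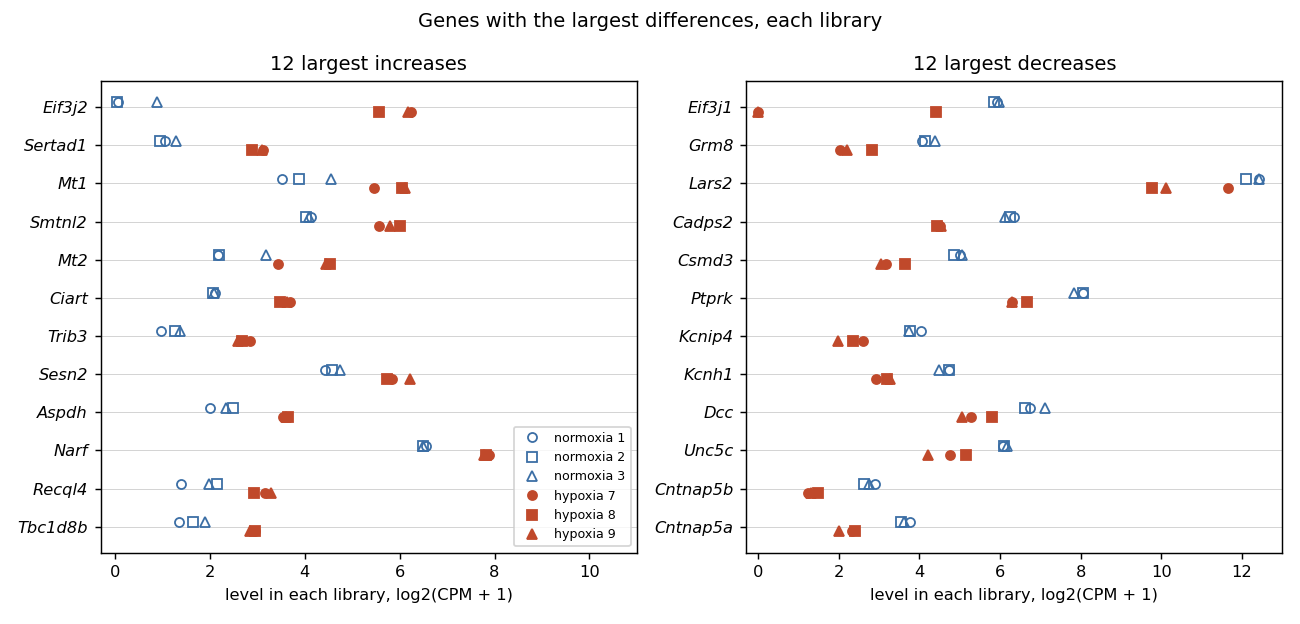
Levels of the 12 genes with the largest increases (left) and the 12 with the largest decreases (right) in each library, as log2(CPM + 1) on the horizontal axis; open blue symbols are normoxia 1 to 3 and filled red symbols hypoxia 7 to 9. No gene shown has overlapping groups; Eif3j1 is at 0 CPM in hypoxia 7 and 9 and at 20.2 CPM in hypoxia 8, and Lars2 is at 3222 CPM in hypoxia 7 against 874 and 1107 CPM in hypoxia 8 and 9.

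Metallothioneins, small cysteine-rich proteins that bind zinc and copper and are induced by metals and stress, rose together. Mt1 stood at 10.5, 13.8 and 22.6 CPM in normoxia and at 43.3, 65.7 and 68.5 CPM in hypoxia. Mt2 stood at 3.50, 3.59 and 8.15 CPM and at 9.89, 22.2 and 20.7 CPM. For both genes the lowest hypoxia value, that of hypoxia 7, lay above the highest normoxia value (log2 changes 1.89 and 1.62, SE 0.23 and 0.33, adjusted p = 0.00025 and 0.0042 by limma). Mt3, the form enriched in brain, stood at 11.5, 12.4 and 18.8 CPM and at 17.1, 24.5 and 29.4 CPM, with overlapping groups (log2 change 0.69, adjusted p = 0.028 by limma). Mt3 was added after its values were seen, and its call was lost without hypoxia 8, hypoxia 9, normoxia 1 or normoxia 2. Metallothioneins are abundant in astrocytes, whose markers summed to more in hypoxia 8 and 9 than in the other libraries; the part of that in these values was not tested.

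Promoter sequences were read for genes that moved together or held a hypoxia-type core motif, since these show what lies around a listed start of the largest increases. RefSeq (GRCm38.p6) gave 1 promoter, 250 bases before to 50 after the first listed start, for 9687 of the 12923 tested genes and for 10 of the 12 largest increases. That start can lie inside the gene span. The span of Mt1 begins at 94178883, so most of the Mt1 window shown lies within it. Eif3j2 and Recql4 were not among them. The promoters of Mt1 (chr8:94178839-94179138, plus strand) and Mt2 (chr8:94172368-94172667, plus strand) are shown 5′ to 3′ with every TGCNCNC in capitals on either strand. This pattern is looser than TGCRCNC (R is A or G), the core of metal response elements. A match is therefore not always such a core, and TGCTCTC and GGGAGCA in Mt2 match only the looser pattern.
Mt1: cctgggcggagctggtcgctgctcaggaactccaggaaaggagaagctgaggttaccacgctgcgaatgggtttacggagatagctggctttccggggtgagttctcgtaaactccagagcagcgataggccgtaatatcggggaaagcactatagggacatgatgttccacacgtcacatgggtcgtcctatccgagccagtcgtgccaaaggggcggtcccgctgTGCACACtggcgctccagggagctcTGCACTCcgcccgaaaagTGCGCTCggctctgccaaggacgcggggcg
Mt2: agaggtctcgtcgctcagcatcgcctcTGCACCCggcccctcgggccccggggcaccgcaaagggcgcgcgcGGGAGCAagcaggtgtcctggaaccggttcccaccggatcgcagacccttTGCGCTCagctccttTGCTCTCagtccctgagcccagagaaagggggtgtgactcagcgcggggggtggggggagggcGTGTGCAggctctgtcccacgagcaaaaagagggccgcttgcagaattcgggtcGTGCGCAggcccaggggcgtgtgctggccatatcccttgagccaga
Mt1 held 3 matches and Mt2 held 6; this short motif is common, with at least 1 match in 50.4% of all 27025 promoters of the same length. The letters ACGTG, the core to which HIF binds, are in capitals for the other increases that held them in this form, Ciart (chr3:95882179-95882478, minus strand) and Tbc1d8b (chrX:139684746-139685045, plus strand).
Ciart: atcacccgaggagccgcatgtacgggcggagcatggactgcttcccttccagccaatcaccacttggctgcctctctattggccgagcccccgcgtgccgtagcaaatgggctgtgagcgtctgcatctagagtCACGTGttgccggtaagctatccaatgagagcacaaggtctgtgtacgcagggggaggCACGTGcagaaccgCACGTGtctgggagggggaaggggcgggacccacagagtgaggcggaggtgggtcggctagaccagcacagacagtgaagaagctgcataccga
Tbc1d8b: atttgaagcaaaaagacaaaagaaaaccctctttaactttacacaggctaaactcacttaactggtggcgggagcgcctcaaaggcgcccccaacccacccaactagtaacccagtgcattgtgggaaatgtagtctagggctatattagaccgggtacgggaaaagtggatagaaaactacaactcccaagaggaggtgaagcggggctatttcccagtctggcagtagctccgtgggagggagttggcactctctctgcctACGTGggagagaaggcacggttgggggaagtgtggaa
The 6 matches in Ciart, counted on both strands, formed 3 copies of CACGTG, the E-box that clock and MYC-type factors also bind, so the motifs overlap. Mt1 also held 1 match to ACGTG, not in capitals above, and the 7 other promoters of this set held none. Of all promoters 19.7% held ACGTG on either strand, and of those of tested genes 26.0%. Among the 56 protein-coding genes outside the 3 lists that were at least 2-fold higher, 44 had a promoter and 18 of these (40.9%) held it; among those at least 2-fold lower it was 11 of 86 (12.8%). The other form of the HIF core, GCGTG on either strand, was in 32.5% of all promoters, 53% of those of tested genes, 56.8% of those at least 2-fold higher and 45.3% of those at least 2-fold lower. Among the 10 largest increases with a promoter it was in 6, those of Sertad1, Mt1, Mt2, Ciart, Trib3 and Narf. TGCNCNC was in 61.2% of promoters of tested genes, 52.3% of those at least 2-fold higher and 69.8% of those at least 2-fold lower. A match is a description of the letters and not a binding site.

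The decreases were led by very long genes of the synapse and of axon guidance. Grm8, a metabotropic glutamate receptor that restrains transmitter release (chr6:27275121-28135146), stood at 15.7, 16.5 and 19.8 CPM in normoxia and at 3.11, 6.10 and 3.61 CPM in hypoxia, without overlap (log2 change -1.83, SE 0.19, adjusted p = 0.00011 by limma). Cadps2, which primes dense-core vesicles (chr6:23262773-23841175), stood at 80.8, 74.3 and 68.9 CPM and at 21.9, 20.8 and 22 CPM. The 3 hypoxia values were nearly equal and all below the normoxia range (log2 change -1.74, SE 0.08, adjusted p = 1.7e-07 by limma). Csmd3, a large transmembrane protein gene with roles in dendrites (chr15:47580638-48792558), stood at 31.0, 28.0 and 32.0 CPM and at 7.97, 11.4 and 7.19 CPM (log2 change -1.69, SE 0.17, adjusted p = 7.9e-05 by limma). Ptprk, a receptor tyrosine phosphatase (chr10:28074820-28597397), stood at 265, 266 and 229 CPM and at 76.8, 101 and 77.1 CPM (log2 change -1.58, SE 0.13, adjusted p = 2.7e-05 by limma). In each of Grm8, Csmd3 and Ptprk the library hypoxia 8 had the smallest decrease. The potassium channel partner Kcnip4 (-1.55), the channel Kcnh1 (-1.52), the netrin receptors Dcc (-1.45) and Unc5c (-1.41) and the contactin-associated proteins Cntnap5b and Cntnap5a (both -1.40) followed. Lars2, the mitochondrial leucyl-tRNA synthetase row, fell from 5432, 4378 and 5437 CPM to 3222, 874 and 1107 CPM (log2 change -1.79, adjusted p = 0.01 by limma), and the ribosomal RNA-like row Mir6236 moved with it in each library (89.6, 72.3 and 92.7 CPM to 49.2, 13.1 and 20.1 CPM). Whether the Lars2 row measures the transcript of that gene was not tested. All genes of this paragraph fell under both scalings.

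Grouped by the length of genome that a gene spans from start to end, the whole comparison was graded. Spans come from RefSeq (GRCm38.p6, the assembly of mm10) for 12381 tested protein-coding genes, of which 14.3% were higher and 19.8% lower. The 2846 genes under 10 kb had a median log2 change of 0.12, with 25.2% higher and 6.75% lower. From 10 to 30 kb the median was 0.06 and from 30 to 100 kb it was -0.07. The 1481 genes of 100 to 300 kb had a median of -0.27, with 2.70% higher and 48.9% lower. Of the 436 genes of 300 to 1000 kb, 339 (77.8%) were lower, and of the 54 genes over 1000 kb, 48 (88.9%) were lower, with medians of -0.61 and -0.75 and none called higher in either class. With equal column sums the 6 medians were 0.25, 0.20, 0.06, -0.14, -0.48 and -0.62, so that the sign of the 30 to 100 kb class turned, and the shares lower in the last 2 classes were 64.2% and 77.8%.

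**Figure D2:**
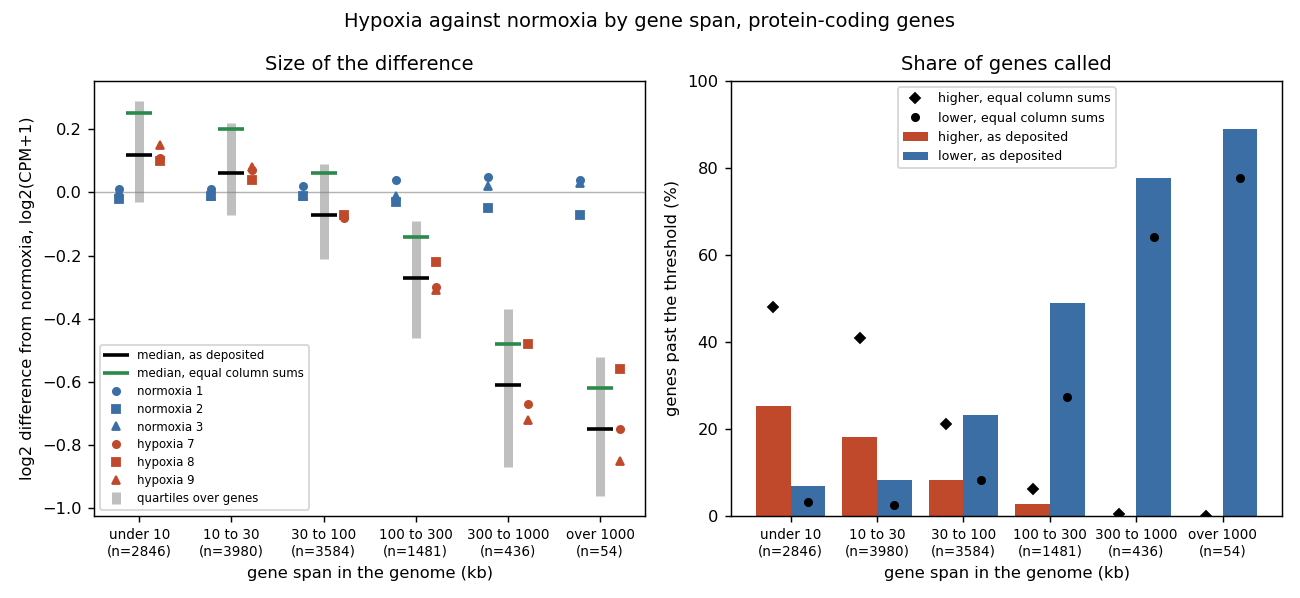
Left, median log2 difference from the normoxia mean of protein-coding genes by genomic span in kb: black dashes as deposited, green dashes with equal column sums (where the 30 to 100 kb class turns from -0.07 to 0.06), grey bars the quartiles over genes, blue and red symbols the medians in each normoxia and hypoxia library. Right, share of genes called higher (red) or lower (blue) as deposited, with equal column sums as black symbols; the share called lower goes from 6.75% under 10 kb to 88.9% over 1000 kb.

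Each hypoxia library showed the gradient. In genes of 300 to 1000 kb the median relative to the normoxia mean reached -0.67, -0.48 and -0.72 in the libraries hypoxia 7, 8 and 9, against -0.05 to 0.05 in the normoxia libraries. Hypoxia 8 was again the least shifted. Summed over the 490 genes of 300 kb or more, the level was 48587, 43967 and 47214 CPM in normoxia and 30351, 33151 and 28366 CPM in hypoxia, so the groups did not overlap. Summed over the 2846 genes under 10 kb, it was 207435, 196763 and 203445 CPM and 207191, 206996 and 208860 CPM, and the groups overlapped.

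The gradient was present among genes of similar expression level and of similar transcript length. By level, genes under 5 CPM had a median log2 change of 0.20 under 10 kb and -0.37 at 300 to 1000 kb, and genes over 80 CPM had 0.09 and -0.58. Among genes whose longest transcript in the GENCODE annotation was 2 to 4 kb, the share lower rose with span from 7.43% of 1063 genes under 10 kb to 78.0% of 82 genes at 300 to 1000 kb. Among those with transcripts over 6 kb it rose from 24.4% of 45 genes to 77.8% of 216 genes, and all 28 genes spanning over 1000 kb were lower. The genes outside the 3 lists that were at least 2-fold lower had a median span of 424 kb, those at least 2-fold higher 8.74 kb, and all tested protein-coding genes outside the lists 25.8 kb.

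A few long genes did not follow. Of the 490 genes of 300 kb or more, 387 were lower, 103 were not called and 19 had a log2 change above 0. Those, chosen after their values were seen, included the cadherins Cdh23 (0.41, adjusted p = 0.14 by limma) and Cdh4 (0.36, adjusted p = 0.052 by limma) and the imprinted splicing factor gene Snrpn (0.02). With equal column sums 2 genes of this length, Cdh4 and Snrpn, were called higher. Among genes over 1000 kb the phosphodiesterase Pde4d and the acid-sensing channel Asic2 did not pass. Pde4d was at -0.13 (adjusted p = 0.27 by limma), or 0.01 with equal column sums, and Asic2 at -0.23 (adjusted p = 0.15 by limma). Both, and Dmd below, were also chosen after their values were seen. At the other end of the same class stood Csmd3, Kcnip4, the synapse organizer Il1rapl1 (-1.52), Dcc, the cGMP-dependent kinase Prkg1 (-1.31) and Robo2 (-1.25). Dmd, the dystrophin gene and with 2390.4 kb the longest tested (chrX:82814664-85205050), stood at 28.1, 36.4 and 39.9 CPM in normoxia and at 15.7, 20.6 and 18.8 CPM in hypoxia (log2 change -0.88, adjusted p = 0.0014 by limma).

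The lists of gene function differed in their shares of called members, which are given with no test of a list. The counts stand beside the shares over all tested genes. Those shares were 14.3% higher and 19.3% lower as deposited, and 30.7% higher and 9.53% lower with equal column sums. The 818 tested protein-coding members of the lists of guidance, adhesion, receptors, channels, synapse, signalling, neuronal identity and cytoskeleton had 55 higher (6.72%) and 394 lower (48.2%), and 136 and 277 with equal column sums. Their members of 300 kb or more were lower in 155 of 182 cases (85.2%), and those under 30 kb in 51 of 252 (20.2%); with equal column sums these counts were 131 and 29. Protein-coding genes in no list were lower in 226 of 300 cases (75.3%) and 422 of 5827 cases (7.24%) at these spans (187 and 145 with equal column sums). The difference between neuronal and other genes was not tested.

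**Figure D3:**
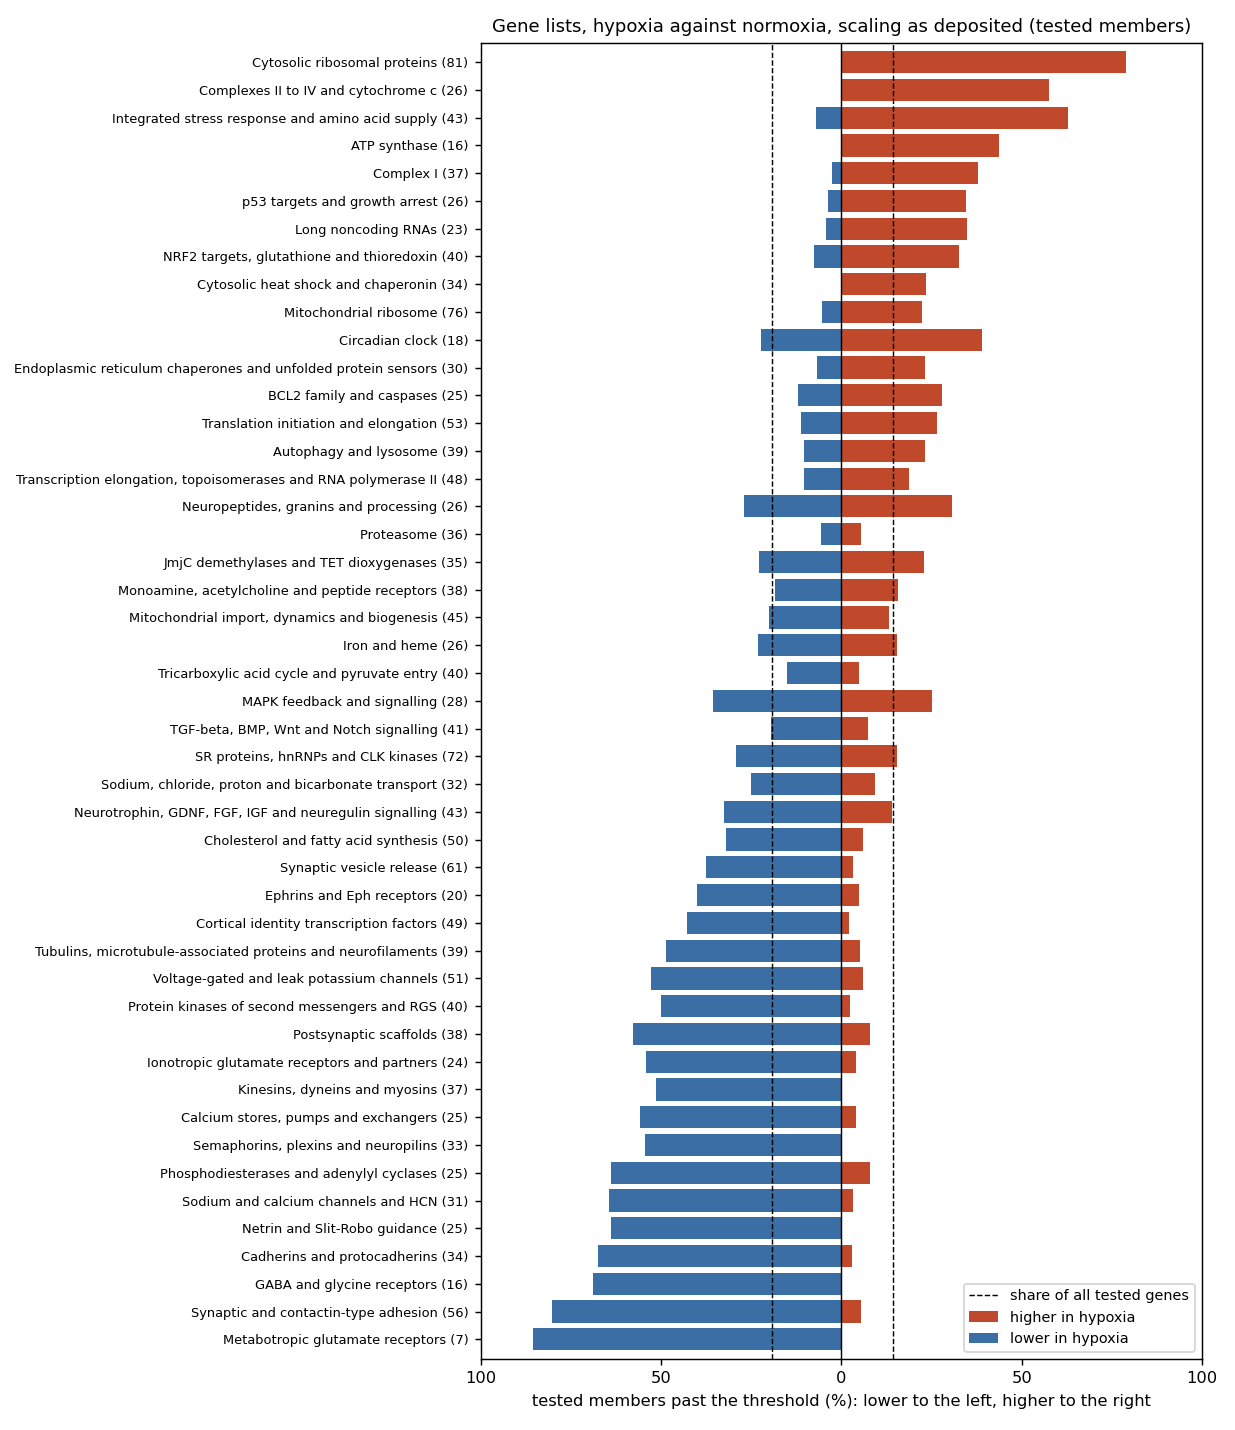
Share of the tested members of each gene list that were called higher (red, to the right) or lower (blue, to the left) in hypoxia, in percent, with the number tested in brackets; dashed lines mark the 14.3% higher and 19.3% lower among all tested genes. Scaling is as deposited. With equal column sums the blue bars shorten and the red bars lengthen, and 30.7% of all tested genes are higher and 9.53% lower. Synaptic vesicle release, for example, then turns from 2 higher and 23 lower to 19 higher and 17 lower.

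Guidance genes let growing axons read attractive and repulsive cues. Of 25 genes of netrin and Slit-Robo signalling 16 were lower and none higher, with a median log2 change of -0.48 against 0.00 over all genes (12 lower and 4 higher with equal column sums). Robo2, a Slit receptor (chr16:73891976-75447443), stood at 199, 190 and 200 CPM in normoxia and at 85.5, 81.0 and 79.2 CPM in hypoxia. The spread within each group was small beside the gap between them (log2 change -1.25, SE 0.06, adjusted p = 1.7e-07 by limma). Its ligand Slit2 (-0.91) and the GTPase-activating partner Srgap1 (-0.78) fell with it. Dcc stood at 107, 97.9 and 137 CPM and at 37.8, 55.1 and 32.3 CPM, again without overlap. Of 33 semaphorins, plexins and neuropilins 18 were lower and none higher (11 and 2 with equal column sums), among them the repellents Sema3e (-1.01) and Sema3a (-0.93) and the receptor Plxna2 (-0.81). Of 20 ephrins and Eph receptors 8 were lower and 1 higher (7 lower and 5 higher with equal column sums). Epha6 (-1.08), Epha7 (-0.92) and Epha5 (-0.80) fell, and Ephb3, a short gene of 18.7 kb, rose from 6.33, 7.13 and 11.4 CPM to 14.4, 14.6 and 20.7 CPM (log2 change 0.94, adjusted p = 0.0065 by limma).

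Adhesion molecules that join neurites and synapses had the largest share of lower members among lists of more than 10 genes. Of 56 synaptic and contactin-type adhesion genes 45 (80.4%) were lower and 3 higher (37 and 3 with equal column sums), with a median of -0.47. Tenm1, a teneurin that pairs synaptic partners, stood at 252, 199 and 244 CPM in normoxia and at 102, 98.8 and 86.4 CPM in hypoxia (log2 change -1.26, SE 0.09, adjusted p = 1.0e-05 by limma). Il1rapl1 stood at 4.5, 4.14 and 4.82 CPM and at 0.961, 0.897 and 0.893 CPM, without overlap. Lsamp (-0.80), Negr1 (-0.70) and Cadm2 (-1.06), immunoglobulin-type adhesion proteins, fell as well, and Lrrtm1, a short partner of neurexins, rose by 0.39. Of 34 cadherins and protocadherins 23 were lower and 1 higher (19 and 5 with equal column sums). Pcdh9 (-1.08), Pcdh7 (-1.08) and Cdh6 (-0.95) fell, as did Pcdh20 (-0.98), which spans only 6.65 kb, and Cdh22, of 123 kb, rose by 0.60.

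Receptors for fast and slow transmission followed. Of 24 ionotropic glutamate receptor genes and partners 13 were lower and 1 higher (7 and 2 with equal column sums), including the kainate receptor Grik2 (-0.95), while the AMPA receptor partner Cacng3 rose from 7.78, 6.80 and 5.18 CPM to 12, 12.6 and 14 CPM (log2 change 0.88, adjusted p = 0.00095 by limma). Of the 7 metabotropic glutamate receptors 6 were lower (5 with equal column sums). Grm2, at 107, 113 and 115 CPM in normoxia and 64.8, 72.2 and 57.8 CPM in hypoxia, fell by 0.78 although it spans only 11.6 kb, and Grm5 (-0.70), Grm3 (-0.86) and Grm7 (-1.02) fell too. Of 16 GABA and glycine receptor genes 11 were lower and none higher (7 and 0 with equal column sums), with Gabrb1 at -0.95 and Gabrb2 at -0.64. Receptors for monoamines, acetylcholine and peptides stood near the background, with 6 higher and 7 lower of 38 (11 and 4 with equal column sums); the 7 became 4 without hypoxia 9 or normoxia 1 and 3 without normoxia 2. The receptor Ntsr2, a neurotensin receptor known from glia, rose from 0.624, 0.876 and 0.822 CPM to 2.26, 3.93 and 2.80 CPM (log2 change 1.15, adjusted p = 0.00055 by limma), and the orexin receptor Hcrtr2 fell by 1.12.

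Ion channels that set excitability were lower too. Of 51 voltage-gated and leak potassium channel genes 27 were lower and 3 higher (20 and 4 with equal column sums). Kcnh7, a channel of the ether-a-go-go family, stood at 19, 16.3 and 16.9 CPM in normoxia and at 7.35, 6.31 and 5.68 CPM in hypoxia (log2 change -1.31, SE 0.11, adjusted p = 2.9e-05 by limma). Kcnd2 (-0.82) and the G protein-gated channel Kcnj3 (-0.96) fell. Of 31 sodium, calcium and HCN channel genes 20 were lower and 1 higher (12 and 1 with equal column sums; 13 lower without hypoxia 9), with the calcium channel subunit Cacna2d1 at -1.03 and the sodium channel Scn1a at -0.51. Of 25 genes of calcium stores, pumps and exchangers 14 were lower and 1 higher (6 and 1 with equal column sums). This count of 14 was 7 without hypoxia 7 or hypoxia 9, 6 without normoxia 1 and 8 without normoxia 3. Calcium pumps were among them: the plasma membrane pump Atp2b2 went from 404, 368 and 357 CPM to 190, 205 and 205 CPM (log2 change -0.91, SE 0.10, adjusted p = 0.00013 by limma) and Atp2b1 (-0.67) and the pump of the endoplasmic reticulum, Atp2a2 (-0.50), fell too. The chloride exporter Slc12a5, which makes GABA inhibitory in mature neurons, rose by 0.27.

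Among the genes of transmitter release, several long genes fell and most members were not called. Of 61 synaptic vesicle genes 23 were lower and 2 higher (17 and 19 with equal column sums). Rims1, which docks vesicles at the active zone, stood at 147, 134 and 137 CPM in normoxia and at 80.6, 87.5 and 78.1 CPM in hypoxia (log2 change -0.76, SE 0.08, adjusted p = 7.8e-05 by limma), and the active zone gene Erc2 fell by 0.53. Of 38 postsynaptic scaffold genes 22 were lower and 3 higher (15 and 10 with equal column sums). Dlgap1, which links PSD-95 to the cytoskeleton, went from 266, 237 and 234 CPM to 96.8, 129 and 97.2 CPM (log2 change -1.20, SE 0.16, adjusted p = 0.00044 by limma), and the guanine exchange factor Kalrn (-1.0) and the adapter Grip1 (-0.82) fell with it. Neuropeptide genes were mixed: of 26 tested, 8 were higher and 7 lower (14 and 5 with equal column sums). The short precursor genes Vgf (0.72) and Cck (0.83) rose, while the long processing enzyme genes Pcsk2 (-0.89) and Pam (-0.64) and the short granin gene Scg2 (-0.49) fell. The 8 became 3 without hypoxia 7, 4 without hypoxia 9, normoxia 1 or normoxia 2, and 5 without normoxia 3.

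Signalling lists differed. The phosphodiesterase and cyclase list and the second-messenger kinase list had the largest shares lower, 64% and 50%, against 19.3% of all tested genes. The growth factor, MAPK and TGF-beta lists had 32.6%, 35.7% and 19.5% lower. They had 14%, 25% and 7.32% higher, against 14.3% of all tested genes. Of 25 phosphodiesterase and cyclase genes 16 were lower and 2 higher (13 and 3 with equal column sums), including both subunits of the nitric oxide receptor, Gucy1b3 (-0.62) and Gucy1a3 (-0.56). Of 40 second-messenger kinases, lipases and RGS genes 20 were lower and 1 higher (17 and 4 with equal column sums). Plcb1, the phospholipase behind metabotropic and muscarinic receptors, stood at 227, 212 and 218 CPM in normoxia and at 85.9, 97.4 and 83.5 CPM in hypoxia. This was among the smallest p-values of the comparison (log2 change -1.29, SE 0.07, adjusted p = 3.9e-07 by limma). Of 43 genes of neurotrophin and growth factor signalling 14 were lower and 6 higher (13 and 11 with equal column sums; 3 higher without normoxia 2). Sorcs2 (-0.78) and Fgf12 (-0.78) fell, and Fgf11, a short gene of the intracellular FGF family, rose from 22.8, 21.6 and 20.5 CPM to 39.1, 44.1 and 38.5 CPM (log2 change 0.87, SE 0.08, adjusted p = 4.7e-05 by limma). In the TGF-beta, BMP, Wnt and Notch list 3 were higher and 8 lower of 41 (6 and 4 with equal column sums; 5 lower without normoxia 1). Hey1, a Notch effector, rose from 9.03, 9.03 and 10.6 CPM to 21.0, 20 and 25.6 CPM (log2 change 1.13, SE 0.13, adjusted p = 0.00016 by limma). In the MAPK list 7 were higher and 10 lower of 28 (11 and 9 with equal column sums): the feedback inhibitor Spry4 rose by 0.94 and the exchange factor Rasgrf1 by 0.73, while its longer relative Rasgrf2 fell by 0.68.

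Transcription factors that define cortical neuron types were lowered in part. Of 49 tested, 21 were lower and 1, Fezf2 (0.23), higher (13 and 4 with equal column sums); the call on Fezf2 was lost without any 1 of 5 of the 6 libraries. Satb1, a chromatin organizer of cortical neurons, stood at 211, 228 and 229 CPM in normoxia and at 99.1, 112 and 111 CPM in hypoxia (log2 change -1.04, SE 0.09, adjusted p = 2.4e-05 by limma). Foxp1 (-0.73) and Mef2c (-0.56) fell, as did the short gene Neurod1, which spans 4.0 kb, from 22, 21.5 and 19.2 CPM to 12.9, 13.7 and 9.74 CPM (log2 change -0.75, adjusted p = 0.0013 by limma). Calb1, a calcium buffer of upper-layer neurons and interneurons, went from 69.6, 64.7 and 64.1 CPM to 25.7, 28.3 and 25.5 CPM. With a span of 25.4 kb it was among the most lowered genes of ordinary length (log2 change -1.29, SE 0.07, adjusted p = 1.1e-06 by limma).

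The alpha and beta tubulins, subunits of microtubules, were lowered although their genes are short. Of the genes named by the rule, Tuba1a lost the most CPM: it stood at 11286, 10221 and 10701 CPM in normoxia and at 6142, 7437 and 6397 CPM in hypoxia. Tubb3, the neuronal beta tubulin, stood at 2578, 2278 and 2262 CPM and at 922, 1357 and 1033 CPM. In both the groups were far apart, with hypoxia 8 the least lowered (log2 changes -0.69 and -1.12, SE 0.10 and 0.15, adjusted p = 0.00058 and 0.00044 by limma). Of the 10 tubulin genes tested, 8 were lower, and the count was also 8 with equal column sums and without any 1 library; Tuba4a (-0.11, and 0.03 with equal column sums) and Tubb6 (0.32) were not called as deposited, and Tubb6 was called higher with equal column sums. Tubulin genes resemble each other closely and reads can be divided between them, so the summed level is the firmer value: 25620, 22931 and 23472 CPM in normoxia and 12735, 16055 and 13568 CPM in hypoxia. This family was singled out after its values were seen. Of the wider list of tubulins, microtubule-associated proteins and neurofilaments 19 of 39 were lower and 2 higher (9 and 6 with equal column sums), and Nefm rose by 0.31. Motor proteins (kinesins and dyneins, which carry cargo along microtubules, and myosins) had 19 of 37 lower and none higher (12 and 2 with equal column sums). Among those lower were the dynein chain Dync1i1 (-0.56), the kinesin Kif5c (-0.41) and the long myosin gene Myo16 (-1.01).

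**Figure D4:**
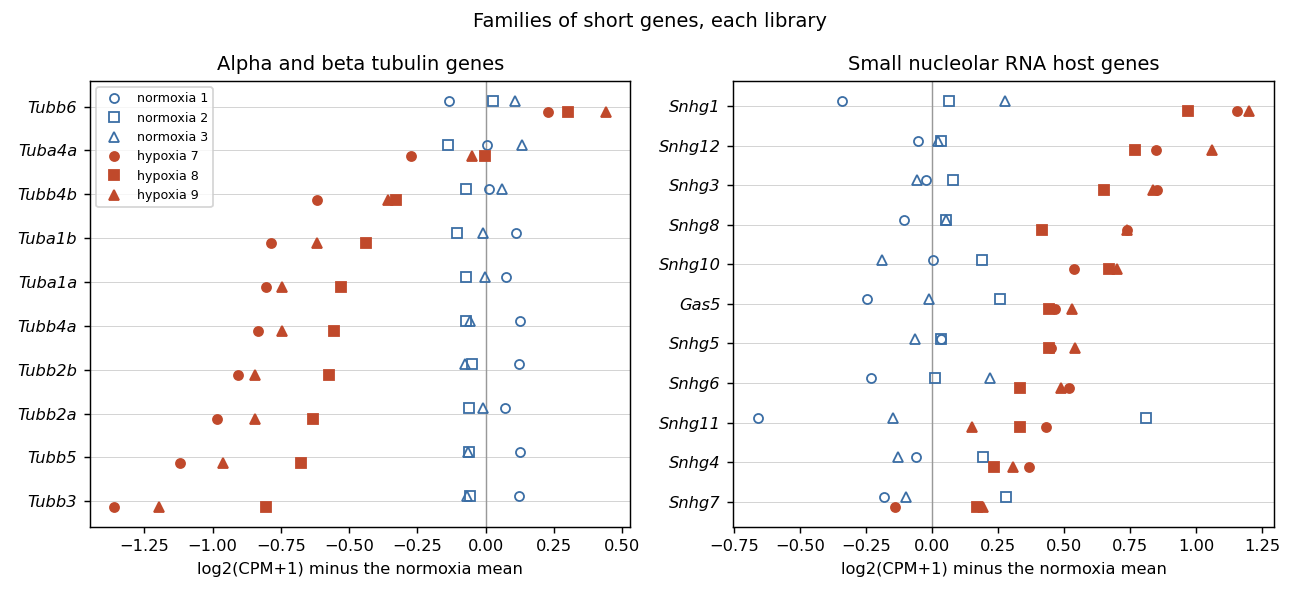
Level of each tubulin gene (left) and each small nucleolar RNA host gene (right) in every library, as log2(CPM + 1) minus the normoxia mean; open blue symbols are normoxia 1 to 3 and filled red symbols hypoxia 7 to 9. Under the deposited scaling 8 of 10 tubulin genes are lower and 8 of 11 host genes higher; with equal column sums 8 tubulin genes are lower and 1, Tubb6, higher, and 9 host genes are higher.

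Nuclear-encoded subunits of the respiratory chain had more higher and fewer lower members than the background, by small amounts. Of 37 complex I genes 14 were higher and 1 lower, of 26 genes of complexes II to IV and cytochrome c 15 were higher and none lower, and of 16 ATP synthase genes 7 were higher and none lower (28, 21 and 15 higher under equal sums). Median log2 changes were 0.14, 0.22 and 0.17. Cox5b, a subunit of cytochrome oxidase, went from 119, 114 and 122 CPM in normoxia to 142, 137 and 148 CPM in hypoxia (log2 change 0.27, adjusted p = 0.0023 by limma). Ndufa4, counted in the complex I list only by its gene name, went from 100, 106 and 119 CPM to 146, 139 and 148 CPM (0.42, adjusted p = 0.0019 by limma). The groups did not overlap in either. These counts rested on single libraries: complex I had 9 higher without hypoxia 7, 7 without hypoxia 9 and 8 without normoxia 1 or normoxia 2. Complexes II to IV had 9 without hypoxia 7 or normoxia 1 and 7 without hypoxia 9 or normoxia 2, and ATP synthase had 3 without hypoxia 7 or normoxia 2 and 2 without hypoxia 9 or normoxia 1. Of 76 mitochondrial ribosome genes 17 were higher and 4 lower (39 and 0 with equal column sums), led by Mrpl45 (0.42). The 17 became 8 without hypoxia 9 or normoxia 2, and the 4 became 1 without hypoxia 7, normoxia 1 or normoxia 2 and 2 without hypoxia 8, hypoxia 9 or normoxia 3. In the tricarboxylic acid cycle list 2 of 40 were higher and 6 lower (9 and 2 with equal column sums), with the 2-oxoglutarate dehydrogenase gene Ogdh at -0.29 and the glutaminase gene Gls2 up by 1.07. Ppargc1a, a coactivator that drives mitochondrial biogenesis and spans 662 kb, fell by 0.48.

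Cytosolic ribosomal protein genes, many of which have near-identical pseudogene copies that can take reads, had the largest share of higher members among the lists outside the 3 set aside, with 64 of 81 higher, none lower and a median of 0.29 (76 higher with equal column sums). Rps24 stood at 225, 228 and 270 CPM in normoxia and at 320, 326 and 345 CPM in hypoxia (log2 change 0.46, adjusted p = 0.0019 by limma). Translation factors were mixed, with 14 of 53 higher and 6 lower (37 and 2 with equal column sums); the 14 became 8 without hypoxia 9 or normoxia 2. The helicase gene Eif4a2 rose by 0.49, and the long scaffold gene Eif4g3 (-0.67) and the elongation factor 2 kinase Eef2k (-0.63), which slows elongation when energy is short, fell. Proteasome genes were rarely called as deposited, with 2 of 36 higher and 2 lower. With equal column sums 19 were higher and 1 lower, where 30.7% of all tested genes were higher.

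Most genes of the ATF4 stress program rose. Of 43 genes of the integrated stress response and amino acid supply 27 (62.8%) were higher and 3 lower, with a median of 0.31 (35 and 0 with equal column sums). The 12 aminoacyl-tRNA synthetase genes among them had 4 higher, 2 lower and 6 not called, with a median of 0.05. With equal column sums 8 of these were higher and 0 lower. Atf4, the transcription factor translated when eIF2 is phosphorylated, stood at 183, 191 and 212 CPM in normoxia and at 353, 305 and 335 CPM in hypoxia (log2 change 0.76, SE 0.07, adjusted p = 6.2e-05 by limma). Ppp1r15a, which reverses that phosphorylation, went from 32.0, 32.7 and 39.1 CPM to 87.8, 74.6 and 94.0 CPM. Trib3, a pseudokinase target of ATF4, went from 0.957, 1.42 and 1.61 CPM to 6.16, 5.41 and 5.08 CPM, and Sesn2, a leucine sensor that restrains mTORC1, from 20.4, 22.8 and 25.7 CPM to 56.7, 52.3 and 73.4 CPM. None of the 3 overlapped between groups (log2 changes 1.28, 1.5 and 1.36; adjusted p = 2.2e-05, 0.00011 and 2.8e-05 by limma). The one-carbon enzyme Mthfd2 rose by 0.73. Of 34 cytosolic heat shock and chaperonin genes 8 (23.5%) were higher and none lower (27 and 0 with equal column sums). Over all tested genes the shares higher were 14.3% as deposited and 30.7% with equal column sums. The inducible Hspa1b stood at 17.3, 11.7 and 10.8 CPM and at 28.2, 26.9 and 25.5 CPM. Its log2 change was 0.99 (SE 0.14, adjusted p = 0.00057 by limma). Hspa1a rose by 0.62 and their cochaperone Dnajb1 by 0.36. Hspa1a and Hspa1b are near-identical copies whose reads can be divided. In the endoplasmic reticulum 7 of 30 genes were higher and 2 lower (18 and 1 with equal column sums). Herpud1, a part of the degradation machinery there, rose by 0.86 and the sensor kinase Eif2ak3 by 0.35, while the foldase Pdia6 fell by 0.31.

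The p53, BCL2 and NRF2 lists had 34.6%, 28% and 32.5% of members higher, against 14.3% of all tested genes. They had 3.85%, 12% and 7.5% lower, against 19.3%. The iron list, with 15.4% higher and 23.1% lower, stood near these background shares. Of 26 genes of the p53 list 9 were higher and 1 lower (14 and 0 with equal column sums). Cdkn1a, the inhibitor p21, stood at 87.1, 79.6 and 89.6 CPM in normoxia and at 134, 132 and 135 CPM in hypoxia (log2 change 0.64, SE 0.06, adjusted p = 5.5e-05 by limma), and Phlda3, an inhibitor of AKT, went from 4.41, 3.26 and 4.22 CPM to 8.08, 8.97 and 14 CPM (log2 change 1.17, SE 0.18, adjusted p = 0.0009 by limma). Of 25 genes of the BCL2 family and caspases 7 were higher and 3 lower, and 5 and 2 without rows that hold values off the read step (11 and 1 with equal column sums). The pro-apoptotic Bcl2l11 stood at 3.58, 3.93 and 4.07 CPM and at 7.69, 6.48 and 15.8 CPM, with hypoxia 9 well above the others (log2 change 1.08, SE 0.23, adjusted p = 0.0052 by limma), while the protective Birc2 rose by 0.60 and Bcl2l1 fell by 0.21. Of 40 genes of NRF2, glutathione and thioredoxin 13 were higher and 3 lower (24 and 2 with equal column sums; 8 higher without hypoxia 9 or normoxia 2), including Txnrd1 (0.42) and Gpx4 (0.31), which guards against lipid peroxidation. Iron genes were mixed, with 4 of 26 higher and 6 lower (10 and 3 with equal column sums). The ferritin chains Fth1 (0.30) and Ftl1 (0.32), which store iron, and the globin Cygb rose, and the importer Slc11a2 (-0.54) and the regulator Ireb2 (-0.35) fell. Cygb stood at 14.6, 14.1 and 14.3 CPM and at 26.3, 26.4 and 24.8 CPM, without overlap (log2 change 0.81, SE 0.07, adjusted p = 2.9e-05 by limma).

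Genes of transcription and RNA processing changed on both sides. Polr2a, the largest subunit of RNA polymerase II, stood at 188, 186 and 210 CPM in normoxia and at 408, 339 and 414 CPM in hypoxia. Hexim1, which holds the elongation kinase P-TEFb inactive, stood at 30.6, 31.1 and 34.8 CPM and at 87.5, 62.7 and 78.6 CPM. Neither overlapped between groups (log2 changes 0.98 and 1.21, SE 0.12 and 0.14, adjusted p = 0.0002 and 0.00018 by limma). Of the 48 genes of this list 9 were higher and 5 lower (21 and 2 with equal column sums), and Top2b, the type II topoisomerase of neurons, fell by 0.37. The 9 became 5 without hypoxia 7 or hypoxia 9, and the 5 became 3 without hypoxia 7, normoxia 1 or normoxia 3. Of 72 splicing regulators 11 were higher and 21 lower (26 and 8 with equal column sums; 11 lower without hypoxia 9 and 12 without normoxia 3). Srsf6 (0.71) and Tra2a (0.55), short SR-type factors whose own transcripts carry regulatory exons, rose, and Hnrnpdl (-0.37) and Celf1 (-0.56) fell. The list of JmjC and TET enzymes, which need oxygen for catalysis, also held other demethylases and hydroxylases, among them Alkbh5 and Asph. Of its 35 genes 8 were higher and 8 lower, 22.9% each way (11 and 5 with equal column sums). Over all tested genes 14.3% were higher and 19.3% lower. Without rows off the read step 6 of the list were higher and 8 lower. The RNA demethylase Alkbh5 rose from 51.2, 52.7 and 54.4 CPM to 92.2, 80.5 and 91.6 CPM (log2 change 0.73, adjusted p = 7.8e-05 by limma), and the aspartyl hydroxylase gene Asph fell by 0.73.

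Host genes of small nucleolar RNAs, short noncoding transcripts whose introns yield the guides that modify ribosomal RNA, were higher in 8 of 11 cases. Snhg1 stood at 4.29, 6.01 and 7.11 CPM in normoxia and at 13.9, 12.1 and 14.4 CPM in hypoxia (log2 change 1.11, SE 0.15, adjusted p = 0.00043 by limma), and Snhg12 at 9.53, 10.2 and 10.1 CPM and at 18.7, 17.6 and 21.8 CPM (0.89, adjusted p = 0.00025 by limma). The groups did not overlap for either. Snhg3 (0.78), Snhg8 (0.63) and Gas5 (0.48; reads from the small nucleolar RNAs within can add to these rows) rose as well, and of the 11 tested 8 were higher and none lower (9 with equal column sums). This family was singled out after its values were seen. Of the 23 long noncoding RNAs listed 8 were higher and 1, Peg13 (-0.34), lower (9 and 1 with equal column sums).

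Clock genes were mixed, with 7 of 18 higher and 4 lower (12 and 2 with equal column sums). Ciart, a repressor of CLOCK and BMAL1, had the largest change, from 3.29, 3.17 and 3.25 CPM to 12, 10.2 and 11.4 CPM (log2 change 1.52, SE 0.13, adjusted p = 2.3e-05 by limma); its promoter is the one shown with 3 E-boxes. Per2 rose by 0.45, and Csnk1e, a kinase that marks PER proteins, fell by 0.29. Genes of cholesterol and fatty acid synthesis had 3 of 50 higher and 16 lower (9 and 5 with equal column sums), and the 16 became 10 without hypoxia 8 and 9 without normoxia 1. Acsl4 (-0.52) and the carboxylase Acaca (-0.49) fell, and Dgat2, which makes triglycerides, rose by 0.47. Autophagy and lysosome genes had 9 of 39 higher and 4 lower (21 and 1 with equal column sums, where 30.7% of all tested genes were higher). The 9 became 4 without hypoxia 7 and 5 without normoxia 2, and the 4 became 2 without normoxia 2. Genes of mitochondrial import and dynamics had 6 of 45 higher and 9 lower (22 and 1 with equal column sums). The 6 became 3 without hypoxia 7, 1 without hypoxia 9 and 2 without normoxia 1, and the 9 became 2 without hypoxia 9, 3 without normoxia 1 and 5 without normoxia 2 or normoxia 3. In the list of sodium, chloride, proton and bicarbonate transport 3 of 32 were higher and 8 lower (8 and 4 with equal column sums).

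Among the largest gains in mean CPM outside the 3 lists, values not divided by transcript length, were those of Nnat, Ftl1, Eef2, Vgf and Polr2a. Nnat, an imprinted proteolipid of the endoplasmic reticulum, went from 1504, 1371 and 1474 CPM to 1957, 2004 and 1808 CPM (log2 change 0.41, adjusted p = 0.00051 by limma). The groups did not overlap. The call on Eef2 (0.15, adjusted p = 0.048 by limma) was lost when any 1 of the 6 libraries was left out. The largest losses were in Tuba1a, the Lars2 row with the limit given above, Tubb2b (-0.77), Tubb3, Tubb5 (-0.92) and the growth cone gene Dpysl3 (-0.26).

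Markers of astrocytes, the oligodendrocyte lineage and progenitors had raised medians, though few members were called. Of 14 tested astrocyte markers 3 were higher and none lower, of 10 oligodendrocyte lineage markers 1, of 17 progenitor and cell cycle markers 2, and of 16 interneuron markers 2 were higher and 1 lower. The shares higher were 21.4%, 10%, 11.8% and 12.5%, against 14.3% of all tested genes. Median log2 changes were 0.88, 0.83, 0.64 and 0.10 in the same order, against 0.00 over all tested genes. Under equal column sums the counts of higher markers were 5, 1, 2 and 3. These counts moved with single libraries: the 3 astrocyte markers became 7 without hypoxia 7, 6 without normoxia 3 and 2 without hypoxia 8, hypoxia 9 or normoxia 2. The oligodendrocyte count became 7 without hypoxia 7, 3 without normoxia 3 and 0 without any other library, and the progenitor count 6 without hypoxia 7, 10 without normoxia 3 and 1 without hypoxia 9, normoxia 1 or normoxia 2. Ndrg2, an astrocyte gene, stood at 28.4, 25.6 and 30.7 CPM in normoxia and at 42.2, 55.5 and 65.7 CPM in hypoxia, without overlap (log2 change 0.90, adjusted p = 0.0015 by limma). Olig2, the transcription factor of the oligodendrocyte lineage, stood at 2.96, 15.6 and 34.9 CPM and at 14.8, 49.9 and 54.1 CPM, with overlapping groups (log2 change 1.41, adjusted p = 0.13 by limma). Of 14 neuron markers 1 was higher and 4 lower (1 and 2 with equal column sums; 2 lower without normoxia 1), with Tubb3 and the long gene Syt1 (-0.54) among those that fell. The part of cell composition in the changes above was not tested. Neuron markers summed to 8909, 8242 and 8516 CPM in normoxia and to 6941, 7137 and 6643 CPM in hypoxia, without overlap. Much of that fall was in Tubb3 alone, which went from 2578, 2278 and 2262 CPM to 922, 1357 and 1033 CPM. The median log2 change of the 14 neuron markers was -0.06, and 9 were not called.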

How the data were processed

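RNA of 9 libraries of primary cortical neurons was sequenced; 6 libraries, 3 per group, are compared. Per the submitters' processing notes, reads were handled with Bowtie2 2.1.0, RSEM 1.2.15 and edgeR on mm10; the annotation, filters and use of strand are not given in the sources used here. The deposited values are a normalized signal, TMM-scaled CPM (counts relative to library size) whose columns sum to 945822 to 1091200. Between 99.9% and 100% of values in a library were whole multiples of 1 read (tolerance 0.01 reads), and 35 rows with values off that step are not reported singly. One column without a name was not used, and 27 symbols had been turned into dates.

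Here log2(value + 1) of genes above 1 CPM in at least 3 of 9 libraries was tested with limma 3.58.1 in R 4.3.3, all 3 groups sharing the spread (6 residual degrees of freedom, trend in variance), with Benjamini-Hochberg adjustment over all 12923 genes and a threshold of 0.05. Recovered reads were also tested with edgeR 4.0.16 (4290 genes, 33.3%; 16.7% higher and 16.6% lower) and DESeq2 1.42.0 (4456 genes, 34.6%; 15.7% higher and 18.8% lower). The scripts were tested on simulated data, where smaller changes were missed more often and the share of false calls was above the nominal threshold, so that counts of called genes may hold more false calls than that threshold states.

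The members and lists were chosen with earlier results of these data known. Named genes are the 12 largest increases and decreases among called genes whose groups do not overlap and whose higher group averages 5 CPM or more, the 6 largest gains and losses in CPM, and up to 5 members of each list by adjusted p with both directions shown, leaving out the 3 lists, predicted genes and rows off the read step; others are said to be chosen after their values were seen. Alternatives changed scaling, pseudocount, filter, test, variance model and each library in turn. Some named genes are not reported here.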

Additional observations from a re-analysis of the deposited data

How the results depend on the processing

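The scaling decided how many genes were called in each direction. Over all tested genes, 1846 were higher and 2497 lower as deposited, 3973 and 1232 with equal column sums, and 3156 and 1526 with equal sums taken without Rn45s, Lars2 and Mir6236. Outside the 3 lists the counts were 3879 and 1226, and 3064 and 1520, under these scalings. The count at least 2-fold higher (60) became 100 with equal column sums, 198 with a pseudocount of 0.1, 13 with a pseudocount of 5, 221 by edgeR and 219 by DESeq2. The count at least 2-fold lower (113) became 47 and 60 under the 2 equal-sum scalings and 42 with a pseudocount of 5. Leaving out each library in turn gave 1171 to 1635 higher genes over all tested and 1092 to 1550 outside the lists, both lowest without hypoxia 9. It gave 43 to 134 genes at least 2-fold higher, the highest without normoxia 3 and 131 without hypoxia 7, and 82 to 173 at least 2-fold lower, the highest without hypoxia 8. The cause of these shifts was not tested. The count of genes of 300 kb or more that were lower (387) was 322 to 391 over all 18 alternatives. Of 162 named genes that were called, 158 kept their call without any 1 library, and none of the 162 turned in direction under the alternatives. Of the named genes that were not called, Pde4d went from -0.13 to 0.01 and Tuba4a from -0.11 to 0.03 with equal column sums, and Snrpn (0.02) was below 0 without hypoxia 7 or normoxia 2. No paired analysis was possible because the hypoxia columns carry the numbers 7 to 9, which match no replicate number of the normoxia columns. At this depth 1 read was worth 0.0302 to 0.0565 CPM, so folds of genes near 1 CPM rest on few reads.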
